A study of Mus musculus with 4 samples.

Results

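Mature neutrophils are the granulocytes that leave the bone marrow with their granules already filled. Here they were taken from single-cell RNA sequencing of mouse hepatic nonparenchymal cells, the leukocytes, endothelial cells and other cells of the liver that are not hepatocytes. A cell barcode was a member when it carried at least 10 unique molecular identifiers (UMIs, one per captured transcript) of S100a8 and S100a9 together and at least 2 of Csf3r, Cxcr2 and Retnlg together. It also had to carry at most 9 UMIs of Camp, Ngp and Ltf (granule genes of immature neutrophils), 0 of the monocyte and macrophage receptor gene Csf1r, at most 1 of Cd3d, Cd3e, Cd79a and Ms4a1 (T and B cells) and at most 1 of Ptprb, Kdr and Egfl7 (endothelial cells). Members were thus chosen by these UMI counts, measured in the same data, and what the rule used is described and not tested. Of 24561 cells with at least 200 genes and at most 20% mitochondrial UMIs, 2033 (8.28%) were members.

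The 4 libraries came from 1 mouse each, all wild-type C57B6 animals aged 18 to 20 weeks. The TAA mouse received intraperitoneal thioacetamide, a hepatotoxin that is turned into reactive products in hepatocytes and scars the liver, for 12 weeks. Each of the remaining treated animals, TAA+C7.5 and TAA+C30, had the same thioacetamide course and, from week 5 of it, celecoxib by gavage at 7.5 or 30 mg/kg. Celecoxib blocks cyclooxygenase-2, which is encoded by Ptgs2 and makes prostaglandin precursors from arachidonic acid. The control mouse received normal saline. The livers were dissociated mechanically and with enzymes, red cells were lysed and most hepatocytes were spun out, so that loosely attached blood cells and cells in the tissue enter the suspension together. With 1 mouse per group there is no replicate of any comparison, so groups were not tested and each difference is one between 2 libraries. Ranges in parentheses are exact 95% intervals and cover counting error only.

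Neutrophils mature in the bone marrow in an ordered way. Primary granule proteins are made first and secondary granule proteins such as those of Camp, Ngp and Ltf next. Gelatinase granule proteins such as that of Mmp9 come last, after which the cells enter the blood. In tissue they sense chemoattractants through Cxcr2, Fpr1 and related receptors, release cytokines and proteases, and answer interferons and microbial products through receptors that most leukocytes share. In the fibrotic liver they are studied both for tissue injury and for matrix breakdown, since they carry collagenases.

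The members held 1997482 UMIs in the TAA library, 554980 in TAA+C7.5, 1119915 in TAA+C30 and 433723 in control. Their median depth was 2328.5, 1184, 1605.5 and 2614 UMIs per cell in that order, and 25, 128, 95 and 8 members had under 1000 UMIs. Between 9 and 14 cell barcodes were shared by each pair of libraries, and no member was among them. Scrublet called 63 to 153 cells per library as doublets, of which 3, 4, 6 and 0 were members, and these were kept. Mitochondrial genes took 1.69%, 1.42%, 1.31% and 6.46% of member UMIs. The limit of 20% mitochondrial UMIs left out 193 of 6915, 24 of 6117, 47 of 6284 and 678 of 6583 barcodes, most in control. With a limit of 10% the members were 12.7%, 7.38%, 10.2% and 3.15% of the cells kept. Beyond these shares, what the limit does to the comparisons with control was not tested.

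Markers of other cells were found in a few members for some cell types and in many members for others. B cell markers reached 3371 CPM (counts per 1e6 member UMIs) in TAA, where 1 cell held 6222 of 6733 UMIs, against 420 CPM in TAA+C7.5, 221 in TAA+C30 and 201 in control. Monocyte markers (Ccr2, F13a1, Fn1, Ms4a6c and Cx3cr1) stood at 38.0 CPM in TAA, 5.41 in TAA+C7.5, 200 in TAA+C30 and 16.1 in control, and 9 of the TAA+C30 members held 194 of its 224 such UMIs. Transcripts of hepatocytes (304, 213, 118 and 542 CPM), sinusoidal endothelium (16.5, 7.21, 2.68 and 171 CPM) and red cells (316, 137, 271 and 991 CPM) were highest in the control members. A hepatocyte UMI was found in 39.2%, 19.5%, 13.9% and 59.9% of members, and a red cell UMI in 6.98%, 16.6%, 12.1% and 85.5%. Kupffer cell or macrophage markers (Clec4f, Timd4, Vsig4, C1qa, C1qb, C1qc and Cd5l) stood at 79.1 CPM in TAA, 3.60 in TAA+C7.5, 29.5 in TAA+C30 and 106 in control, in 16.2%, 0.454%, 5.18% and 22.1% of members. Cholangiocyte markers stood at 113, 10.8, 11.61 and 6.92 CPM, with 158 of their 226 TAA UMIs in 1 cell. Plasmacytoid dendritic cell markers stood at 4.51, 57.7, 52.7 and 4.61 CPM. In TAA+C7.5 1 cell held 29 of their 32 UMIs, and in TAA+C30 1 cell held 33 of 59. Eosinophil markers were near 0, with 11, 2, 3 and 2 UMIs. A stricter set without monocyte UMIs and without cells of over 3 times the median depth kept 764, 436, 576 and 166 members, and its values are given where they differ. Members without a Kupffer cell or macrophage UMI numbered 672, 439, 586 and 134.

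The members made up 12.3% (11.5 to 13.1) of TAA cells, 802 of 6512. They were 7.25% (6.61 to 7.93) of TAA+C7.5 cells, 441 of 6083, and 10.0% (9.27 to 10.8) of TAA+C30 cells, 618 of 6178. In control they were 2.97% (2.55 to 3.44), 172 of 5788. The TAA share was thus the highest and the control share the lowest, with neither interval meeting that of another library. Against control the TAA share was 4.14 times as large (3.51 to 4.92). Against TAA, the TAA+C7.5 share was 0.589 times as large (0.523 to 0.662) and the TAA+C30 share 0.812 times (0.730 to 0.903). Among cells with a UMI of the leukocyte gene Ptprc the shares were 13.6%, 7.96%, 10.1% and 6.44%, and TAA stood 2.11 times (1.78 to 2.51) above control.

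The limits of the rule mattered unequally. Cells with 8 or 9 UMIs of S100a8 and S100a9, just outside, numbered 5, 3, 6 and 1 in TAA, TAA+C7.5, TAA+C30 and control, and those with 10 or 11, just inside, 3, 3, 3 and 2. A Csf1r UMI alone kept out 235, 66, 145 and 64 cells, and allowing up to 2 of them gave shares of 15.4%, 8.25%, 12.0% and 3.99%. The limit on Camp, Ngp and Ltf alone kept out 35, 30, 305 and 1 cells, the immature neutrophils. These were 4.18% (2.93 to 5.77) of immature plus mature neutrophils in TAA, 6.37% (4.34 to 8.97) in TAA+C7.5, 33.0% (30.0 to 36.2) in TAA+C30 and 0.578% (0.0146 to 3.18) in control. At that limit, cells with 10 or 11 UMIs numbered 0, 2, 6 and 0 and members with 8 or 9 numbered 2, 1, 7 and 0.

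**Figure D1:**
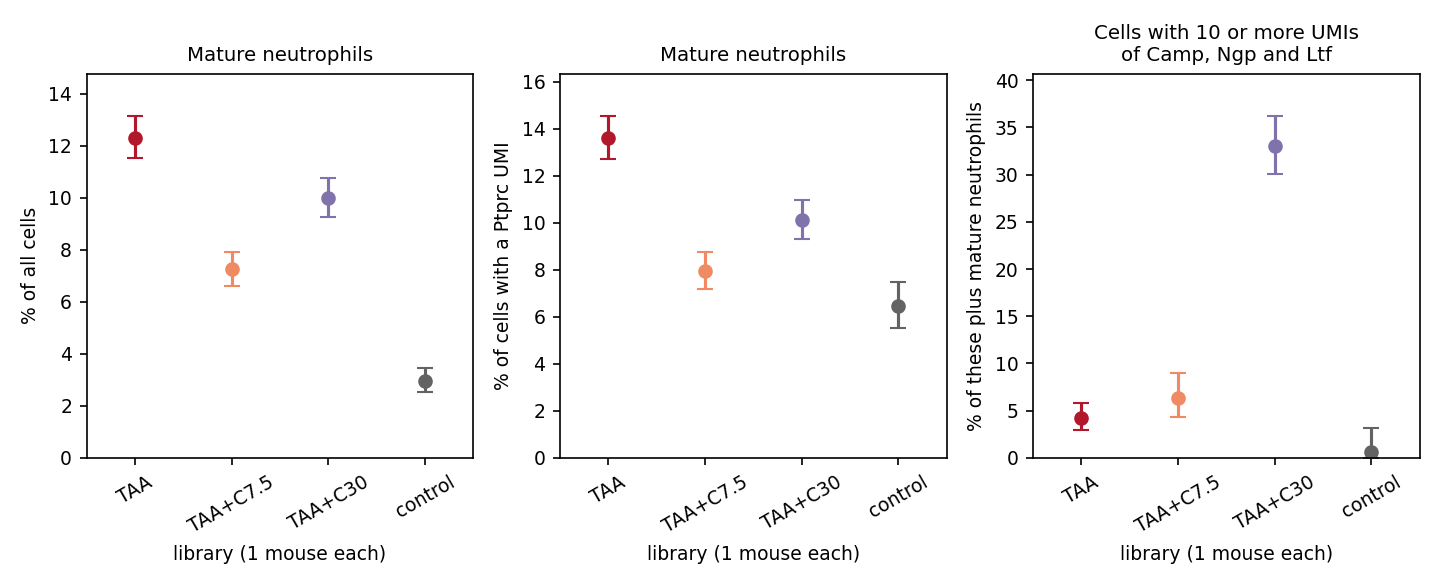
Share of mature neutrophils among all cells (left) and among cells with a Ptprc UMI (middle), and share of cells with 10 or more UMIs of Camp, Ngp and Ltf among these and mature neutrophils together (right), in percent, for each library of 1 mouse; bars are exact 95% intervals for counting error. The TAA library has the highest mature share, 12.3% of all cells, and TAA+C30 the highest immature share, 33.0%.

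The members fitted their name in all 4 libraries, as a description of what the rule selected. Of 25 neutrophil genes that the rule did not use, 23 stood at least 2-fold above all other cells of the same library in each library, and 8 at least 10-fold. The exceptions were Cd177 and Ifitm6, which immature neutrophils also carry. S100a9 and S100a8, the subunits of calprotectin, were the most abundant transcripts in every library and together took 13.2%, 11.9%, 16.5% and 10.3% of member UMIs in TAA, TAA+C7.5, TAA+C30 and control. Next came transcripts such as Fth1 (ferritin heavy chain), Tmsb4x (an actin-binding peptide) and Cxcl2 (a chemokine that attracts neutrophils). The TAA+C7.5 library stood apart in the calprotectin pair, with 0.638 S100a8 UMIs per S100a9 UMI in its members against 0.999 in TAA, 0.965 in TAA+C30 and 0.958 in control. The ratio was also low in all other cells of that library, 0.755, against 1.03, 1.06 and 0.943 in TAA, TAA+C30 and control. Those other cells include immature neutrophils, which held 13996 of their 28214 S100a8 and 18419 of their 37394 S100a9 UMIs in TAA+C7.5. B cells stood at 0.609 there, against 1.02, 1.37 and 0.768 in TAA, TAA+C30 and control. Whether the low ratio extends beyond transcripts of neutrophils was not tested.

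Thioacetamide against saline asks how neutrophils of the scarred liver differ from those of a healthy one. The TAA members carried more transcripts of interferon-stimulated genes, of class I antigen presentation and of several NF-kB targets, and fewer of the glucocorticoid-induced gene Tsc22d3, of several adhesion and chemoattractant receptors and of some cytokines. Over the 5517 genes measured (a mean of at least 10 CPM and at least 20 UMIs over both libraries), 634 (11.5%) were at least 1.5-fold higher and 588 (10.7%) at least 1.5-fold lower in TAA, on the log2(CPM + 10) scale used for all calls. The ratio's interval excluded 1 for 430 and 486 of them. Changes are scaled to total member UMIs, under which the median gene stood at −0.01. With TMM factors it stood at 0.08, and the calls split into 824 higher and 410 lower.

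Interferons are cytokines that induce a broad set of antiviral genes through transcription factors that bind GAAA repeats near their start sites. Of 49 listed genes of this kind, 42 were measured, and 31 were at least 1.5-fold higher in TAA and 0 lower, against 11.5% and 10.7% of all genes. The interval excluded 1 for 28 of the 31, and the list's median log2 ratio was 0.92. In members without a Kupffer cell or macrophage UMI 27 of 40 were higher and 0 lower, with the median again at 0.92, against 11.5% and 12.1% of all genes. The list was chosen with earlier results of these data known and is a description of the members. Of its genes, 37 were found among the RefSeq promoters of build GRCm38.p6, windows of 250 bases before to 50 after each start site. The letters GAAANNGAAA on either strand, read as TTTCNNTTTC where they lie on the other one, were present for 19 of these 37 genes (51.4%), against 3.99% of 27025 genes in all. The same letters were found for 0 of 20 granule genes, 0 of 20 NF-kB genes and 2 of 12 class I genes. A match describes the letters and is not evidence of a bound site. The windows of 3 genes whose values follow are printed 5′ to 3′ on the gene's strand, with the matched letters in capitals. They lie at chr4:156200769-156201068 (minus strand) for Isg15 with 3 matches, at chr19:34640639-34640938 (plus strand) for Ifit1 with 2 matches and at chr12:26456403-26456702 (minus strand) for Rsad2 with 1 match.
Isg15: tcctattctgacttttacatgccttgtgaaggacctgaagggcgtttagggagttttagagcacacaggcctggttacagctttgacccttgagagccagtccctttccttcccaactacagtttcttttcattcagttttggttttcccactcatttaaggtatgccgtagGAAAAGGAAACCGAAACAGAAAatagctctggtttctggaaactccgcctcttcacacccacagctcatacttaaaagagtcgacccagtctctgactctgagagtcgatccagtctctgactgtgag
Ifit1: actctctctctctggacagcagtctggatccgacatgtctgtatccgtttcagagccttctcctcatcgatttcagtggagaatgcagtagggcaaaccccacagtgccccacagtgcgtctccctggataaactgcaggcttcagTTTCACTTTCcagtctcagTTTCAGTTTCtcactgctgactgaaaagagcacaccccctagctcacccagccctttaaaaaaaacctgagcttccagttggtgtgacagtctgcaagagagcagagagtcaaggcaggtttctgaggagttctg
Rsad2: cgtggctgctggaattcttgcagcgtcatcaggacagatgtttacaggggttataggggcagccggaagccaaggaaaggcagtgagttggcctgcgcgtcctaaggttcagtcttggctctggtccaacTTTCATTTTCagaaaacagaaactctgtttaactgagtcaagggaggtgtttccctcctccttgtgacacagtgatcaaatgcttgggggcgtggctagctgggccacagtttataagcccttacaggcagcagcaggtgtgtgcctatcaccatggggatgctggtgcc

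Isg15, a ubiquitin-like protein that is joined to other proteins during antiviral responses, stood at 870 CPM in TAA, 384 in TAA+C7.5, 424 in TAA+C30 and 143 in control. TAA was 6.09 times as high as control (4.72 to 7.97). Ifit1, which binds viral RNA that lacks a host-like cap, stood at 190, 82.9, 93.8 and 34.6 CPM in the same order, 5.50 times (3.29 to 9.93) as high in TAA as in control. Both genes were highest in TAA, intermediate in the celecoxib libraries and lowest in control.

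Irf7, a transcription factor that amplifies interferon production, stood at 155 CPM in TAA, 77.5 in TAA+C7.5, 113 in TAA+C30 and 27.7 in control, 5.61 times (3.17 to 10.97) as high in TAA as in control. Oasl1, which in mice limits the translation of Irf7, stood at 127, 52.3, 60.7 and 27.7 CPM, a ratio of 4.58 (2.58 to 8.98). Slfn4, a schlafen gene of myeloid cells, stood at 656, 323, 398 and 224 CPM, a ratio of 2.93 (2.38 to 3.64). These genes kept the order TAA, TAA+C30, TAA+C7.5 and control. Rsad2 (viperin, an antiviral enzyme) did not, at 609 CPM in TAA, 220 in TAA+C7.5, 271 in TAA+C30 and 291 in control. It was 2.10 times (1.74 to 2.54) as high in TAA as in control, with TAA+C7.5 below control and TAA+C30 close to it. In members thinned to 1000 UMIs, an Rsad2 UMI was found in 27.2%, 11.5%, 14.9% and 14.6%, in the same order of libraries.

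Ifi27l2a, an interferon-inducible gene outside the list, was the most abundant of the genes with the highest ratios, at 1658 CPM in TAA, 568 in TAA+C7.5, 1020 in TAA+C30 and 380 in control. Its TAA level was 4.36 times (3.73 to 5.13) that of control. Ifit3 and Ifit3b are near-identical copies whose reads may be hard to assign to either. They stood at 107 and 57.6 CPM in TAA against 16.1 and 2.31 in control, where Ifit3b rested on 1 UMI (ratio 24.97, 4.39 to 995). Ifitm1, which codes for a membrane protein that hinders viral entry, was level, at 2652 CPM in TAA against 2624 in control.

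Cxcl10, a chemokine that attracts T cells through Cxcr3 and is strongly interferon-inducible, was found as 167 UMIs in TAA (83.6 CPM) against 0 in control. Against a floor of 3 counts in control it was at least 12.1-fold higher. It came from few cells, with 37 TAA members carrying a UMI and the top 5 holding 69.5% of them.

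**Figure D2:**
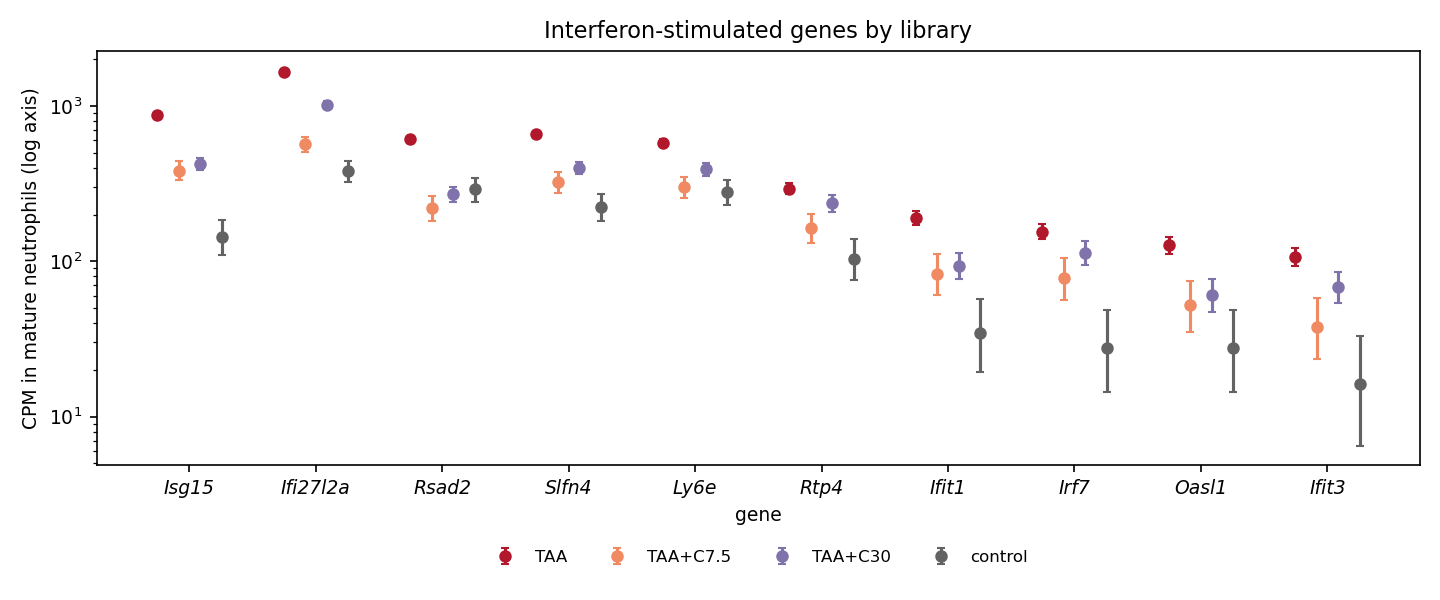
Levels of 9 interferon-stimulated genes of the list and of Ifi27l2a in mature neutrophils, as CPM of member UMIs on a log axis, 1 point per library and gene with its exact 95% Poisson interval. TAA is the highest library for each gene (Isg15, 870 CPM), and for Rsad2 TAA+C7.5 lies below control and TAA+C30 close to it.

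The interferon-stimulated UMIs were spread over many cells. After each member was thinned to 1000 UMIs, which left out 25, 128, 95 and 8 shallower members, 45.6% (42.0 to 49.1) of TAA members carried 10 or more UMIs of the list, with a median of 9 and a highest cell of 97. In TAA+C7.5 32.9% did, with a median of 7, in TAA+C30 43.4%, with a median of 9, and in control 23.8%, with a median of 5. Unthinned, the shares were 81.8%, 42.4%, 70.6% and 67.4%. The TAA+C30 share stood close to that of TAA although most listed genes were lower there: Ifitm1 and Ifitm3 together gave 5477 CPM in TAA+C30 and 4211 in TAA, and the other 47 genes 4268 CPM in TAA+C30 and 6779 in TAA. An Isg15 UMI was found in 33.7%, 20.4%, 23.7% and 10.98% of thinned members. In B cells thinned alike, whose median depths were 3382, 1726.5, 2078 and 3222 UMIs, it was found in 1.44%, 0.528%, 0.786% and 0.390%.

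**Figure D3:**
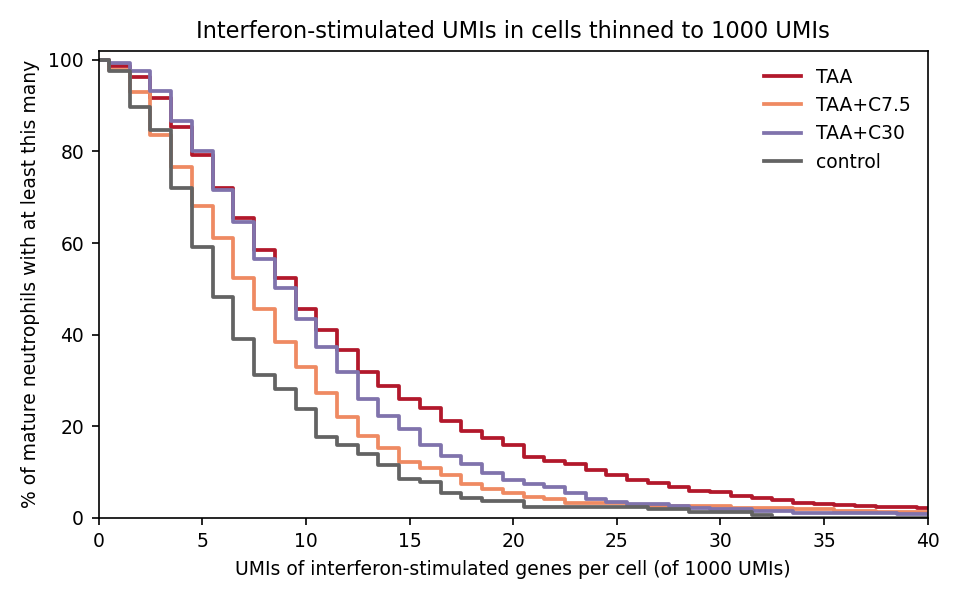
Percent of mature neutrophils (vertical axis) with at least a given number of UMIs of interferon-stimulated genes (horizontal axis), each cell thinned to 1000 UMIs, 1 line per library. The TAA line lies above control throughout the range where they separate, with 45.6% and 23.8% of cells at 10 or more UMIs, and TAA+C30 follows TAA at low numbers and parts from it at high ones.

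Class I antigen presentation shows peptides to CD8 T cells and is itself interferon-inducible. Of 14 genes, 8 were at least 1.5-fold higher in TAA and 0 lower, against 11.5% and 10.7% of all genes. Their median log2 ratio was 0.63. In members without a Kupffer cell or macrophage UMI 4 were higher, against 11.5% of all genes, with a median of 0.51. H2-K1, a class I heavy chain, stood at 1137 CPM in TAA, 717 in TAA+C7.5, 849 in TAA+C30 and 657 in control, 1.73 times (1.53 to 1.96) as high in TAA as in control, and its log2 ratio was 0.56, under the threshold, in members without a Kupffer cell or macrophage UMI. Psmb8, a catalytic subunit of the immunoproteasome, stood at 193, 112, 168 and 66.9 CPM, a ratio of 2.88 (1.97 to 4.36). The light chain B2m, at 2109, 1360, 1428 and 1891 CPM, was 1.12 times as high (1.03 to 1.20) in TAA as in control.

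Among 22 measured NF-kB targets and feedback genes 8 were higher and 1 lower in TAA, against 11.5% and 10.7% of all genes. The median was 0.41. Nfkb1, which encodes the p105 precursor of an NF-kB subunit, stood at 315 CPM in TAA, 270 in TAA+C7.5, 271 in TAA+C30 and 127 in control, a ratio of 2.49 (1.89 to 3.34) between TAA and control. Traf1, a signalling adaptor, stood at 185 CPM in TAA against 66.9 in control. Nfkbid, a nuclear IkB protein, was the gene that was lower, at 435 CPM in TAA against 931 in control, 2.14-fold lower (1.90 to 2.41). The anti-apoptotic genes Bcl2a1a, Bcl2a1b and Bcl2a1d, near-identical copies, were all higher, Bcl2a1a with 192 CPM in TAA against 69.2 in control. Bcl2l1, which encodes the anti-apoptotic BCL-XL and is on none of the lists, was among the 10 highest ratios, with 144 UMIs in TAA (72.1 CPM) against 2 in control, 15.6 times (4.25 to 130). Of 22 survival and apoptosis genes 4 were higher and 3 lower, against 11.5% and 10.7% of all genes.

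Genes described in aged or tissue-activated neutrophils were mixed, 5 of 17 higher and 3 lower, against 11.5% and 10.7% of all genes. Their median was 0.41. Siglecf, a sialic acid-binding receptor of eosinophils that tissue neutrophils can also carry, stood at 61.6 CPM in TAA (123 UMIs in 94 cells), 28.8 in TAA+C7.5, 28.6 in TAA+C30 and 13.8 in control, 4.45 times (1.99 to 12.4) as high in TAA as in control. Hilpda, a lipid droplet protein induced by hypoxia, stood at 196, 204, 211 and 66.9 CPM, so that all 3 thioacetamide libraries lay about as high. Spp1 (osteopontin) stood at 667 CPM in TAA, but 758 of its 1333 UMIs were in 1 cell, and in the stricter set its log2 ratio to control was 1.25. Of oxidase and redox genes, 5 of 20 were higher and 1 lower, against 11.5% and 10.7% of all genes. Among the higher ones were Prdx5, a peroxiredoxin (1505 CPM in TAA against 699 in control), and Fth1 (23928 against 13804 CPM).

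Other genes with the highest ratios of TAA to control were Rgs1, a brake on G protein-coupled receptor signalling, at 327 CPM in TAA, 121 in TAA+C7.5, 213 in TAA+C30 and 50.7 in control (6.44 times, 4.22 to 10.4), and Ctss, the lysosomal protease cathepsin S, at 247 CPM in TAA against 64.6 in control. Asprv1, a skin and neutrophil aspartic protease, stood at 948, 989, 961 and 348 CPM, so that celecoxib libraries and TAA lay within 1.04-fold of each other and TAA stood 2.72 times (2.31 to 3.23) above control.

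Tsc22d3, which encodes the glucocorticoid-induced leucine zipper protein, was the lowest of the genes made by neutrophils, at 103 CPM in TAA, 286 in TAA+C7.5, 213 in TAA+C30 and 364 in control, 3.55-fold lower in TAA (2.87 to 4.39). Its UMIs were found in 9.65%, 21.7%, 17.02% and 28.0% of thinned members. B cells showed the same order, at 474, 698, 597 and 1004 CPM. Of 13 glucocorticoid response genes 4 were lower and 1 higher, against 10.7% and 11.5% of all genes, with a median of −0.29. The others that were lower were Per1 (a clock gene), Nr3c1 (the glucocorticoid receptor) and Zfp36 (an mRNA decay factor). Nr4a1, an immediate early nuclear receptor, stood at 680, 944, 697 and 1858 CPM, 2.73-fold lower in TAA than in control (2.50 to 2.98). Of 24 genes that respond early to stress and dissociation 4 were higher and 4 lower, against 11.5% and 10.7% of all genes.

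The remaining genes with the lowest ratios were Kcnj2 (a potassium channel), Cass4 (an adhesion scaffold), Sgms1 (a sphingomyelin synthase), Trim8 (a ubiquitin ligase), Dck (deoxycytidine kinase), Retn (resistin) and Myadm (a membrane protein of myeloid cells), 2.56 to 3.25-fold lower in TAA. The lowest ratio was that of Mup3, a urinary protein made by hepatocytes but not among the listed hepatocyte markers, at 1.00 CPM in TAA against 83.0 in control members and 42.0 CPM in control B cells, next to the higher hepatocyte transcripts of the control members.

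Several receptors were lower. Among 23 chemoattractant and adhesion receptors 5 were lower and 1 higher in TAA, against 10.7% and 11.5% of all genes, with a median of −0.34. Cxcr4, the receptor that holds and recalls neutrophils to bone marrow, stood at 1246, 1155, 1000 and 1907 CPM, 1.53-fold lower in TAA than in control (1.41 to 1.66), with a log2 ratio of −0.48 in members without a Kupffer cell or macrophage UMI. Fpr1, the receptor for bacterial formyl peptides, stood at 85.6, 171, 132 and 145 CPM, 1.70-fold lower (1.25 to 2.28). Itga4 and Cd44, adhesion molecules, were also lower. Of 24 pattern and Fc receptor genes 4 were higher and 3 lower, near the 11.5% and 10.7% of all genes.

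Of 20 measured cytokine and chemokine genes 2 were higher and 5 lower in TAA, against 11.5% and 10.7% of all genes. Ccl4, which attracts T cells and monocytes, stood at 2064, 2697, 1442 and 4487 CPM, 2.17-fold lower in TAA than in control (2.06 to 2.30). Tnf stood at 253, 245, 294 and 436 CPM, 1.72-fold lower (1.45 to 2.04), and Osm (oncostatin M) at 399, 658, 706 and 655 CPM, 1.64-fold lower (1.43 to 1.88). Il1b was near level at 8375, 9060, 7690 and 9248 CPM. Cxcl2 was the highest chemokine transcript, at 16281, 17143, 23240 and 11457 CPM, 1.42 times (1.38 to 1.46) as high in TAA as in control.

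**Figure D4:**
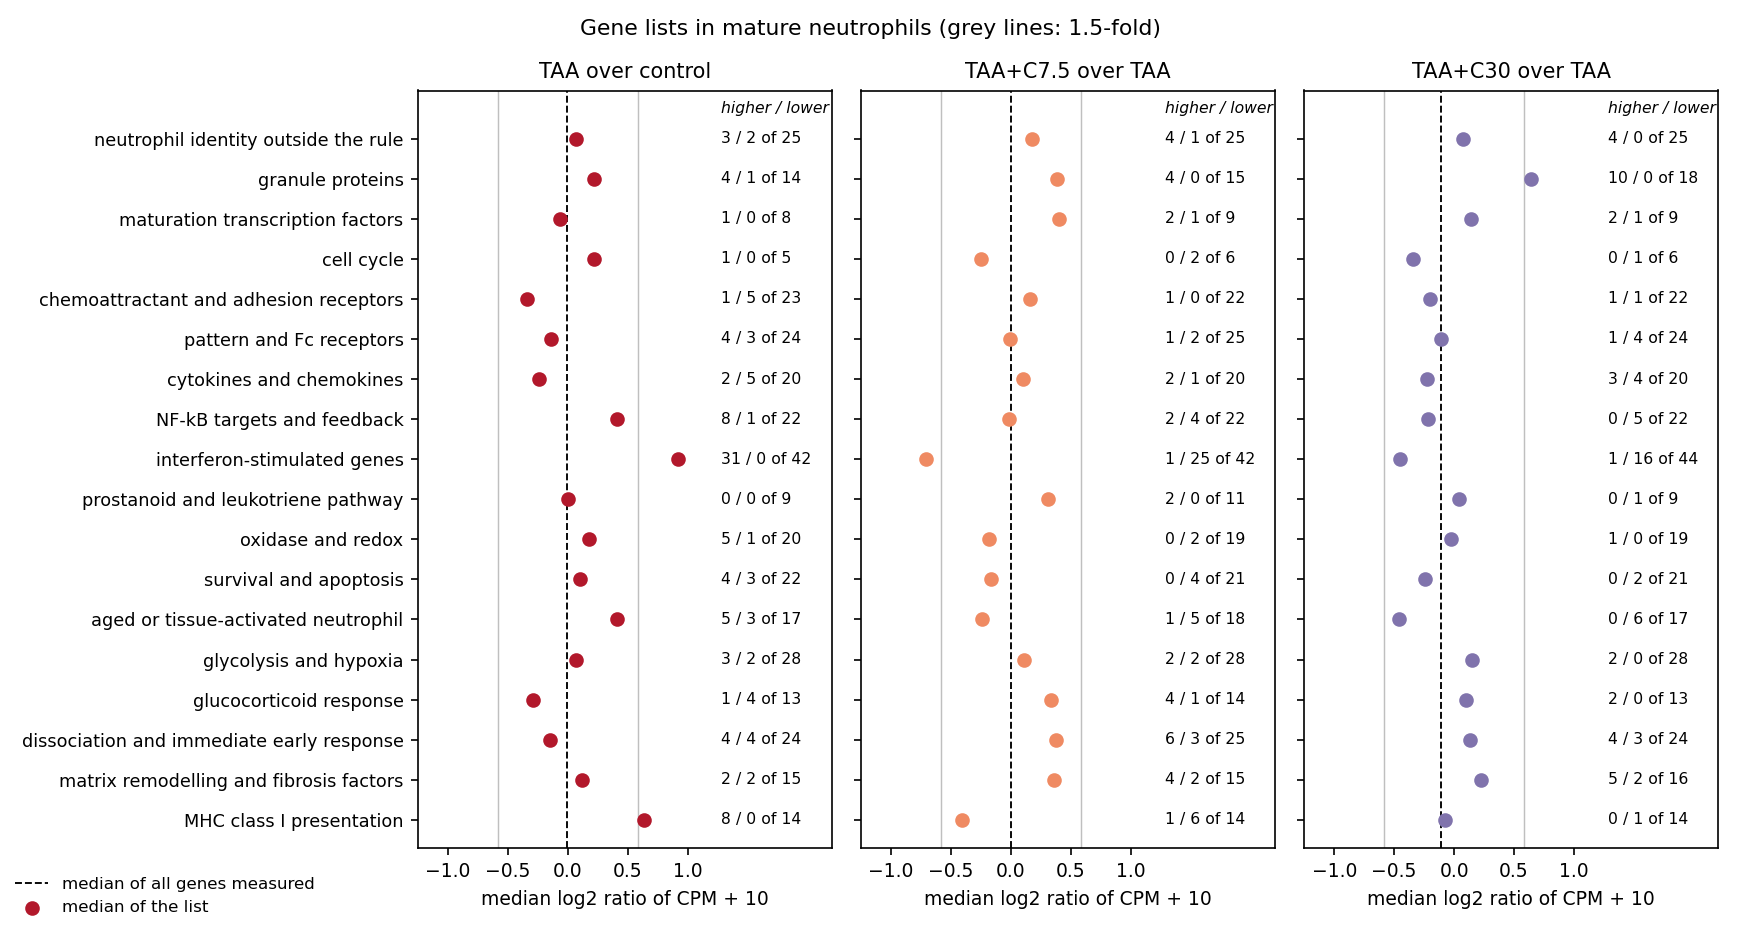
Median log2 ratio of CPM + 10 (horizontal axis) of each gene list in mature neutrophils for TAA over control (left), TAA+C7.5 over TAA (middle) and TAA+C30 over TAA (right), with the number of measured genes at least 1.5-fold higher and lower beside it; the dashed line is the median of all genes and grey lines mark 1.5-fold. Interferon-stimulated genes have the highest median for TAA over control (0.92), and granule proteins the highest for TAA+C30 over TAA, at 0.64 with the rule genes Camp, Ngp and Ltf and 0.44 without them. The 3 panels share the TAA library.

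The lower celecoxib dose was compared with thioacetamide alone. The TAA+C7.5 members carried fewer interferon-stimulated and class I transcripts than the TAA members. They carried more of several glucocorticoid response genes, of several genes that respond early to stress and dissociation, of Mmp8 and of Wfdc17. Over 5566 genes, 394 (7.08%) were at least 1.5-fold higher and 508 (9.13%) lower, and the interval excluded 1 for 342 and 369. The TAA library serves both this comparison and the one with control, so that a high TAA value enters both.

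Of 42 measured interferon-stimulated genes 25 were at least 1.5-fold lower in TAA+C7.5 and 1 higher, with a median of −0.71, against 9.13% and 7.08% of all genes. In the stricter set 27 were lower, against 8.64% of all genes. The Kupffer cell or macrophage markers were also lower in TAA+C7.5. In members without a UMI of them 25 of 42 interferon-stimulated genes were lower and 1 higher, with a median of −0.68, against 8.14% and 8.32% of all genes. Isg15 was 2.27-fold lower (1.97 to 2.63), Ifit1 2.30-fold (1.69 to 3.19), Rsad2 2.77-fold (2.30 to 3.37) and Ifi27l2a 2.92-fold (2.60 to 3.29). Cxcl10 stood at 12.6 CPM in TAA+C7.5 against 83.6 in TAA, 6.63-fold lower (3.15 to 16.7). The 1 gene that was higher, Bst2 (tetherin, which holds budding virus at the cell), stood at 73.9 against 41.1 CPM, and was lower in TAA+C7.5 with a log2 ratio of −0.57 in the stricter set. Of 14 class I genes 6 were lower and 1 higher, against 9.13% and 7.08% of all genes, with a median of −0.41. In members without a Kupffer cell or macrophage UMI 4 were lower, against 8.14% of all genes, with a median of −0.25.

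Of 14 glucocorticoid response genes 4 were higher in TAA+C7.5 and 1 lower, against 7.08% and 9.13% of all genes, with a median of 0.33. Tsc22d3 was 2.79 times as high as in TAA (2.25 to 3.45). Anxa1 (annexin A1, which restrains neutrophil recruitment) stood at 915 CPM in TAA+C7.5, against 354 in TAA, 2.58 times (2.30 to 2.90), with 721 in TAA+C30 and 443 in control. Fkbp5, a co-chaperone of the glucocorticoid receptor, stood at 54.1 CPM against 17.02 in TAA, 3.18 times (1.88 to 5.35), and Per1 at 420 against 260 CPM. In monocytes or macrophages 6 of 15 measured genes of this list were higher and 2 lower, with a median of 0.39, against 3.61% and 2.28% of all genes measured in those cells. In B cells 1 of 13 was higher and 0 lower, against 1.56% and 1.86% of all genes. Whether the members differ from these cells in this was not tested. Of 25 genes that respond early to stress and dissociation 6 were higher in the TAA+C7.5 members and 3 lower, with a median of 0.38. That compares with 7.08% and 9.13% of all genes.

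Mmp8, the neutrophil collagenase, stood at 544 CPM in TAA+C7.5 against 232 in TAA, 2.35 times (2.02 to 2.72), with 697 in TAA+C30 and 417 in control. Wfdc17, a small secreted protein of myeloid cells, stood at 4058 against 1780 CPM, 2.28 times (2.16 to 2.40), with 3659 in TAA+C30 and 3445 in control. TAA was the lowest library for both genes. Of 15 measured granule genes 4 were higher in TAA+C7.5 than in TAA and 0 lower, with a median of 0.38. Of the 13 that are no genes of the rule 3 were higher, also with a median of 0.38. Plaur (the urokinase receptor) stood at 1081 against 591 CPM and Adam8, a membrane protease, at 739 against 438 CPM. Mmp8, Plaur and Adam8 are 3 of the 4 genes of 15 on the list of matrix remodelling factors that were higher, and 2 were lower. Of all genes 7.08% were higher and 9.13% lower. Other genes with the highest ratios were Snai1 (a transcription factor, 88.3 against 19.5 CPM), Fbxo31 (a ubiquitin ligase subunit, 130 against 37.5 CPM), Crispld2 (a secreted protein, 84.7 against 24.0 CPM) and Sh3bp5 (117 against 46.6 CPM). Try5, a trypsin gene, led by ratio with 31 UMIs in TAA+C7.5 against 1 in TAA, and 5 cells held 93.5% of those 31.

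Among the genes with the lowest ratios, Lst1, an immune regulator of myeloid cells, was the most abundant, at 607 CPM in TAA+C7.5 against 1372 in TAA, 2.26-fold lower (2.02 to 2.54). It stood at 712 in TAA+C30 and 1310 in control. Arhgap5 (a GTPase-activating protein), Hk2 (hexokinase 2), Runx1 (a haematopoietic transcription factor) and Rrbp1 (a ribosome-binding protein of the endoplasmic reticulum) were 2.49 to 3.496-fold lower than in TAA. Rgs1 was 2.71-fold lower (2.10 to 3.54), Siglecf 2.14-fold (1.26 to 3.85) and Cd274, which encodes PD-L1, 1.85-fold (1.47 to 2.36), at 150 CPM against 277. Among genes of aged or tissue-activated neutrophils 5 of 18 were lower and 1 higher, against 9.13% and 7.08% of all genes.

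The higher dose was compared with the same TAA library. The TAA+C30 members carried more transcripts of granule proteins, of Ly6g and of stefins, and fewer of interferon-stimulated genes, though with a smaller median than the lower dose. Over 5518 genes, 185 (3.35%) were at least 1.5-fold higher and 511 (9.26%) lower, the interval excluding 1 for 185 and 509, and the median gene stood at −0.11. With TMM factors it stood at −0.01, with 283 higher and 337 lower.

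Of 18 measured granule genes 10 were higher and 0 lower in TAA+C30, with a median of 0.64, against 3.35% and 9.26% of all genes. Of the 15 that are no genes of the rule 7 were higher, with a median of 0.44, and in the stricter set 7 of 17 were higher, with a median of 0.47, against 2.5% of all genes. Mmp8 stood at 697 CPM in TAA+C30, against 232 in TAA, 3.01 times (2.68 to 3.38). Lcn2 (lipocalin 2, which binds bacterial siderophores) stood at 2458 against 1213 CPM, 2.03 times (1.92 to 2.14). Cd177, a surface protein of neutrophils that the secondary granules hold, stood at 94.7 against 31.5 CPM, 3.001 times (2.18 to 4.17).

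Ly6g, the surface antigen that defines mouse neutrophils, stood at 100 CPM in TAA, 182 in TAA+C7.5, 338 in TAA+C30 and 32.3 in control. TAA+C30 was 3.37 times (2.83 to 4.02) as high as TAA. A Ly6g UMI was found in 6.18% of thinned members in TAA, 13.1% in TAA+C7.5, 17.2% in TAA+C30 and 2.44% in control, and in 0%, 0.176%, 0.314% and 0% of thinned B cells of the same libraries. Wfdc21, a secreted protein of neutrophil granulocytes, stood at 2047 CPM in TAA+C30 against 828 in TAA, 2.47 times (2.32 to 2.64), and Ifitm6, a myeloid Ifitm gene, at 504 against 185 CPM, 2.72 times (2.38 to 3.11). Retnlg and Ngp, which belong to the rule and are given as a description, stood at 15673 and 259 CPM in TAA+C30 against 6564 and 39.5 in TAA. In each of these genes TAA+C30 was the highest library and control the lowest.

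**Figure D5:**
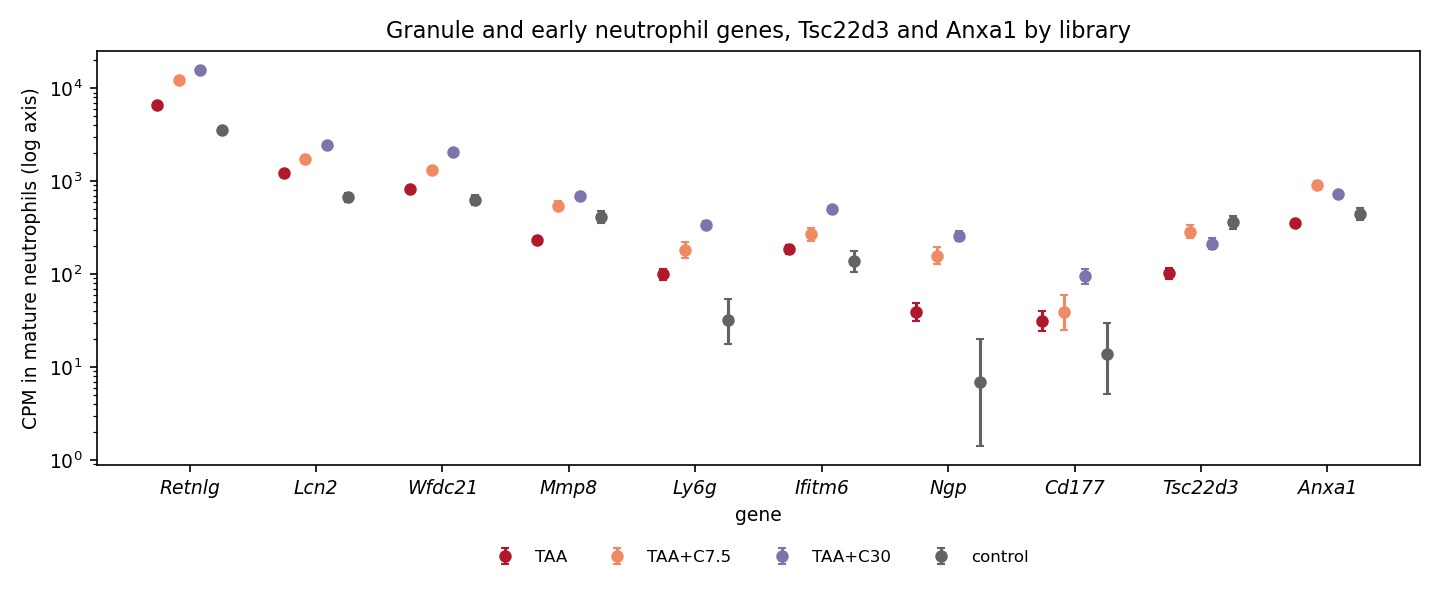
Levels of 8 granule and early neutrophil genes and of Tsc22d3 and Anxa1 in mature neutrophils, as CPM of member UMIs on a log axis, 1 point per library with its exact 95% Poisson interval. For the genes from Retnlg to Cd177 TAA+C30 is the highest library (Ly6g, 338 CPM), and Tsc22d3 and Anxa1 are lowest in TAA (103 and 354 CPM). Retnlg and Ngp belong to the rule that chose the cells.

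The granule transcripts stood beside the larger number of immature neutrophils in that library. Members with 0 UMIs of Camp, Ngp and Ltf were 93.0% of members in TAA, 89.1% in TAA+C7.5, 75.7% in TAA+C30 and 97.1% in control. In members with 0 such UMIs alone, 6 of 15 measured granule genes were higher and 1 lower in TAA+C30 than in TAA, against 3.9% and 7.82% of all genes. An Ngp UMI was found in 2.70% of thinned members in TAA, 8.95% in TAA+C7.5, 13.8% in TAA+C30 and 0% in control, and in 0.227%, 0.0880%, 3.30% and 0% of thinned B cells. S100a8 and S100a9, genes of the rule, were found in a larger share of B cells in TAA+C30 than in any other library. In TAA, TAA+C7.5, TAA+C30 and control an S100a8 UMI was found in 6.04%, 3.52%, 18.2% and 3.51% of thinned B cells. An S100a9 UMI was found in 7.55%, 6.16%, 21.1% and 2.47% of them. The part of free RNA in these levels, and in the choice of members, was not tested.

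Stefins, cysteine protease inhibitors of the neutrophil lineage encoded by near-identical copies, had high ratios. BC100530 stood at 440 CPM in TAA+C30 (60 cells) against 49.6 in TAA, 8.88 times (7.14 to 11.1), Stfa2 at 192 against 49.1 CPM and Stfa3 at 100 against 22.0 CPM. Chil3, a chitinase-like protein of early neutrophils and macrophages, led by ratio with 169 against 4.51 CPM, but 5 cells held 93.7% of its UMIs, and in the stricter set its log2 ratio was 0.37. Gyg (glycogenin, the primer of glycogen) stood at 76.8 against 20.0 CPM, 3.83 times (2.61 to 5.73), and Hopx, a transcriptional cofactor, at 57.1 against 15.5 CPM, with a log2 ratio of 0.80 in the stricter set.

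Interferon-stimulated genes were lower in 16 of 44 measured and higher in 1 in TAA+C30, against 9.26% and 3.35% of all genes. The list's median was −0.45. In members without a Kupffer cell or macrophage UMI the counts were the same, with a median of −0.51, against 9.2% and 4.48% of all genes. Isg15 was 2.05-fold lower than in TAA (1.85 to 2.28), Rsad2 2.25-fold (1.98 to 2.56), Isg20, an antiviral exonuclease, 2.19-fold (1.74 to 2.78) and Cxcl10 5.20-fold (3.19 to 8.99). Irf7 was 1.37-fold lower (1.11 to 1.70) and Ifitm3 1.11 times as high (1.05 to 1.18). The gene that was higher was Ms4a4c, with 25 UMIs in TAA+C30, and in the stricter set no listed gene was called higher. Of 14 class I genes 1 was called lower and 0 higher, against 9.26% and 3.35% of all genes. It was H2-Q7, one of several near-identical genes, at 42.9 CPM in TAA+C30 against 112 in TAA.

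Of 22 NF-kB genes 5 were lower and 0 higher, against 9.26% and 3.35% of all genes. Icam1, an adhesion molecule, was among the lower ones, at 142 CPM in TAA+C30 against 279 in TAA, 1.97-fold lower (1.65 to 2.36). Of 17 genes of aged or tissue-activated neutrophils 6 were lower and 0 higher, against the same shares of all genes. Their median was −0.46, and Siglecf stood at 28.6 against 61.6 CPM. Tsc22d3 was 2.08 times as high as in TAA (1.72 to 2.52) and Anxa1 2.04 times (1.84 to 2.25). These were the 2 of 13 glucocorticoid response genes that were higher, with 0 lower, against 3.35% and 9.26% of all genes. Of 20 cytokine genes 3 were higher and 4 lower, against 3.35% and 9.26% of all genes. Cxcl3, a neutrophil-attracting chemokine, stood at 212 against 92.6 CPM and Osm at 706 against 399. Ccl4 stood at 1442 against 2064 (1.43-fold lower, under the threshold) and Tgfb1, which encodes the main fibrogenic cytokine, at 55.4 against 98.1.

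Pgk1, a glycolytic kinase, stood at 227 CPM in TAA+C30 against 116 in TAA. It was 1 of 2 glycolysis genes that were higher of 28, against 3.35% of all genes. The remaining genes with the lowest ratios in TAA+C30 were AC122252.2 and CT010467.1, which the files list under clone names, Clec4n (dectin-2, a receptor for fungal mannans), Tecpr1 (an autophagy protein), Hist1h4i (a histone H4 gene) and Olr1 (a receptor for oxidised low-density lipoprotein), 2.40 to 3.09-fold lower than in TAA. Clec4n stood at 223 CPM in TAA, 99.1 in TAA+C7.5, 86.6 in TAA+C30 and 143 in control.

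Between the doses, over 5048 genes, 292 (5.78%) were at least 1.5-fold higher and 427 (8.46%) lower in TAA+C30, with the interval excluding 1 for 166 and 325. With TMM factors the median gene stood at 0.05, against −0.10 with total member UMIs, and 491 genes were higher and 201 lower, so the split between directions depended on the scaling. Granule genes were higher in 7 of 19 and lower in 0, with a median of 0.35 against −0.10 for all genes. Without the rule genes Camp, Ngp and Ltf, 5 of 16 were higher, with a median of 0.29. Interferon-stimulated genes were higher in 8 of 41 and lower in 0, with a median of 0.18, the interval excluding 1 for 6. Ly6g stood at 338 CPM in TAA+C30 against 182 in TAA+C7.5, and Isg15 at 424 against 384. The doses were given to different mice and the libraries differ in depth, which cannot be told apart from the dose.

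The target of celecoxib was measured in the members directly. Ptgs2 stood at 1351 CPM in TAA, 1613 in TAA+C7.5, 1391 in TAA+C30 and 1985 in control. It was 1.47-fold lower in TAA than in control (1.36 to 1.59), 1.19 times as high in TAA+C7.5 as in TAA (1.11 to 1.29) and 1.03 times as high in TAA+C30 as in TAA (0.967 to 1.10), so that no comparison passed 1.5-fold. The constitutive cyclooxygenase gene Ptgs1 was low, at 24.0, 16.2, 15.2 and 20.8 CPM. Alox5ap, which presents arachidonic acid to 5-lipoxygenase for leukotriene synthesis, stood at 1176, 1510, 1483 and 1178 CPM. Of the prostanoid and leukotriene genes 0 of 9 passed the threshold between TAA and control, against 22.1% of all genes in either direction. In TAA+C7.5 2 of 11 were higher than in TAA, against 7.08% of all genes. In TAA+C30 1 of 9 was lower than in TAA, near the 9.26% of all genes. Transcript levels do not measure the enzyme's activity, on which celecoxib acts.

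The interferon-stimulated list was set beside other cells of the same libraries. In monocytes or macrophages 28 of 47 measured genes were higher in TAA than in control and 0 lower, with a median of 0.70, against 4.95% and 14.4% of all genes in those cells and a median of −0.18. In B cells 5 of 27 were higher and 1 lower, with a median of −0.01, against 2.78% and 10.1% of all genes and a median of −0.15. In T cells 7 of 38 were higher and 4 lower, with a median of 0.04, against 3.14% and 7.51% of all genes and a median of −0.09.

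Between TAA+C7.5 and TAA, 9 of 48 genes of the list were lower in monocytes or macrophages and 0 higher, with a median of −0.37 against 0.07 for all genes. In B cells 5 of 26 were lower and 0 higher, with a median of −0.23 against −0.02, and in T cells 5 of 38 were lower and 0 higher, with a median of −0.33 against 0.02. Of all genes, 2.28%, 1.86% and 1.94% were lower and 3.61%, 1.56% and 1.32% higher in these 3 classes. Between TAA+C30 and TAA the list's medians were −0.26, −0.29 and −0.19, against −0.03, −0.21 and −0.04 for all genes. The members' own medians in the 3 comparisons were 0.92, −0.71 and −0.45, against −0.01, −0.0037 and −0.11 for all genes. Whether the classes differ was not tested.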

How the data were processed

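Per the labels' protocols, droplet libraries of transcript 3′ ends were made from 4 mice, 1 per group. The authors deposited UMI counts per gene and barcode, from Cell Ranger (version 3.1.0 in the file headers) and build mm10, per the submitters' processing notes. The gene annotation and cell calling are not given in the sources used here. Of 55450 genes listed, all 495 looked up were found in GENCODE M21 (the same build). UMIs of genes sharing a symbol were summed.

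From these counts, barcodes with under 200 genes or over 20% mitochondrial UMIs were left out and the members chosen by the rule in the text. Member UMIs were summed per library, scaled to CPM, and 10 CPM was added before log2 ratios were taken, a call being 1.5-fold. Ratios have exact conditional binomial intervals, sums Poisson and shares Clopper-Pearson intervals. PCR and cells are no replicates, and no p-value was computed. A library with 0 UMIs was set to a floor of 3 counts. Other cells were classed by UMI rules: immature neutrophils by the same rule with at least 10 UMIs of Camp, Ngp and Ltf, monocytes or macrophages by Csf1r, B cells by Cd79a and Ms4a1 and T cells by Cd3d and Cd3e. Genes were measured with a mean of at least 10 CPM and 20 UMIs over both libraries.

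The members and the 18 gene lists were chosen with earlier results of these data known. In each of 3 comparisons 10 genes were named at the upper and 10 at the lower end of the ratios, if the larger of both levels was 50 CPM or more and rested on 30 UMIs or more. Rule, mitochondrial, ribosomal, haemoglobin, immunoglobulin, sex-specific, and uncharacterised genes, 6 listed hepatocyte markers (Alb, Apoa1, Apoa2, Ttr, Fabp1 and Trf), and genes under 25% of their CPM in other cells, were left out. Up to 2 genes per list in each direction and a few fixed genes (Ptgs1, Ptgs2, Il1b, Cxcl2, Mmp8, Mmp9, Cxcr4 and Ly6g) were added. Some genes that this rule names are not reported here. Other genes were singled out after their values were seen. Scrublet in Scanpy 1.11.5 (expected rate 5%) called doublets as an alternative, and edgeR 4.0.16 gave TMM factors. The counting of the ratios was tested on simulated data.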

Additional observations from a re-analysis of the deposited data

How the results depend on the processing

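No paired analysis was possible because each group is 1 mouse, and no replicate could be left out. Depth limits the TAA+C7.5 members most, and the 172 control members limit every comparison with control. The values below follow alternatives that changed a share beyond its interval, a count of genes by over 1.5 times or the sign of a named gene; the cause was not tested unless the alternative itself sets it.

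In the order TAA, TAA+C7.5, TAA+C30 and control, allowing up to 2 Csf1r UMIs gave shares of 15.4%, 8.25%, 12.0% and 3.99%, and cells with a Ptprc UMI as denominator gave 13.6%, 7.96% and 6.44% in TAA, TAA+C7.5 and control. A minimum of 4 UMIs of Csf3r, Cxcr2 and Retnlg gave 11.01%, 6.41% and 8.84% in the thioacetamide libraries. Thinning all cells to 1000 UMIs gave 6.15%, 10.9% and 3.81% in TAA+C7.5, TAA+C30 and control. Members with 10 or more interferon-stimulated UMIs were 17.5%, 7.48%, 11.003% and 4.07% when thinned to 500 UMIs, and 81.8%, 42.4%, 70.6% and 67.4% unthinned.

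Counts of genes higher and lower were 964 higher for TAA over control with 1 CPM added, 154 and 161 with 50 CPM, 1164 higher over genes with any UMI and 201 and 277 over genes with at least 50 CPM and 50 UMIs. For TAA+C7.5 over TAA they were 679 and 816 with 1 CPM, 80 and 113 with 50 CPM, 886 lower over genes with any UMI and 159 and 148 over the stricter genes. For TAA+C30 over TAA they were 330 and 860, 66 and 79, and 73 and 156 over the stricter genes, 283 and 337 with TMM factors, 356 higher with up to 2 Csf1r UMIs and 119 higher without members of over 3 times the median depth. For TAA+C30 over TAA+C7.5 they were 509 and 753, 69 and 48, 527 and 754 over genes with any UMI, 87 and 156 over the stricter genes, and 491 and 201 with TMM factors. There, 566 were higher with up to 2 Csf1r UMIs, 162 without monocyte UMIs, 164 without deep members and 172 without either.

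Over the alternatives run, interferon-stimulated genes called higher for TAA over control numbered 16 to 33, where 2.79% to 17.5% of all genes were higher. Those called lower in TAA+C7.5 than in TAA numbered 11 to 29, where 2.03% to 14.7% of all genes were lower. In TAA+C30 they numbered 8 to 20, where 1.43% to 15.6% of all genes were lower. Granule genes called higher in TAA+C30 numbered 5 to 11, where 1.2% to 6.14% of all genes were higher. No list median changed sign from a called value. Of 216 named ratios past 1.5-fold, 208 kept their direction and 137 stayed past 1.5-fold under every alternative run. Of the 8 others, 4 are ratios of Ngp, which are 0 by construction in members without Camp, Ngp and Ltf UMIs, and the other 4 follow. The log2 ratio of Bst2 for TAA+C7.5 over TAA turned to −0.66 without Scrublet doublets, −0.27 as a mean of single cells, −0.98 with members thinned, −0.61 without deep members and −0.57 without monocyte UMIs as well. Snai1 for TAA+C30 over TAA turned to −0.039 when thinned. For TAA+C30 over TAA+C7.5, Chil3 turned to −0.032 without deep members and −0.0019 without monocyte UMIs as well, and Spp1 to −2.22 with up to 2 Csf1r UMIs. The alternatives on Csf1r, on deep members, on monocyte or Kupffer cell UMIs and on 0 Camp, Ngp and Ltf UMIs were chosen after seeing the data.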

Other observations

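Immature neutrophils, the cells kept out by their Camp, Ngp and Ltf UMIs, were deeper than mature ones, with medians of 7254, 3110.5 and 5070 UMIs in TAA, TAA+C7.5 and TAA+C30. Their Ly6g levels were 752, 823 and 887 CPM and their Mmp8 levels 2412, 2928 and 2069 CPM. Isg15 stood at 870, 384 and 424 CPM in the mature cells of these libraries, against 71.6, 97.9 and 134 CPM in the immature ones. For TAA+C30 over TAA, 1 of 44 measured interferon-stimulated genes was at least 1.5-fold higher and 16 lower in the mature cells. There, 3.35% and 9.26% of all measured genes were higher and lower. In the immature cells 7 of 31 were higher and 2 lower, with a median of 0.27, where 7.42% and 9.79% of all measured genes were higher and lower. That comparison rests on 305 immature cells in TAA+C30 and 35 in TAA, and the difference between the cell classes was not tested.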
